A study of Taeniopygia guttata with 22 samples.

Results

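The 8 cholesterol synthesis enzymes described here are ACAT2 (NCBI gene 100224772), HMGCS1 (100221293), IDI1 (100190360), FDFT1 (100217567), SQLE (100225604), LSS (100223318), HSD17B7 (100222823) and DHCR7 (100230558). They were chosen by symbol, with earlier results of these data known, so shares of all genes given below are a description and no test. All 8 had a row among the 21786 genes with an ID in the count table, and all 8 passed the filter on low counts, as did 16004 genes in all. The tissue was RA, the robust nucleus of the arcopallium, through which the song circuit of the zebra finch reaches its motor neurons. The nucleus was laser-captured from stained sections, and 22 libraries were sequenced. Of these, 5 male and 7 female libraries are from 50 days posthatch, and 5 male and 5 female libraries from 20 days posthatch. No treatment and no altered genotype is given for any bird. Each library has its own brain label, but the labels of female 50-day replicates 5 and 6 share a number, so these may be samples of 1 bird. Their Pearson correlation over log2 levels was 0.977, the highest of the 51 pairs of libraries within a group. If they are 1 bird, p-values that involve the 50-day females, by sex, by age or in the interaction, may be too small. The spread was estimated over all 22 libraries together, so the other p-values may be affected as well.

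Cells build cholesterol from acetyl-CoA by way of mevalonate, isoprenoid units, squalene and lanosterol, and the transcription factor SREBP2 raises the genes of the whole chain when sterol in the membrane of the endoplasmic reticulum runs low. The brain makes its own cholesterol, because lipoproteins of the blood hardly pass its barrier. Growing neurons, astrocytes and, above all, cells that form myelin are large users. The enzyme roles given here are known mainly from mammals and yeast.

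With age, 4 of the 8 enzymes fell in males, namely ACAT2, HMGCS1, IDI1 and SQLE, and 5 fell in females, the same 4 and HSD17B7. In females ACAT2, IDI1 and SQLE did not pass the test when the model also held library depth. Of all 16004 genes tested, 14.2% passed as lower at 50 days in males and 8.05% in females. The share of all genes that fell in both sexes was not counted. FDFT1, LSS and DHCR7 did not pass the test in either sex. The sexes differed at HMGCS1, which was higher in males at both ages, and at SQLE, which was lower in males at both ages. At 20 days SQLE failed the test in 16 of 22 fits that each leave out 1 library. All 20-day females were also sequenced more deeply than all 20-day males. LSS and HSD17B7 were higher in males at 50 days, and HSD17B7 failed the test without male 50-day replicate 2. Between the sexes 33.1% of all genes passed at 50 days and 2.11% at 20 days. HMGCS1 is the 1 enzyme of the 8 on the Z chromosome, of which males carry a pair and females a single copy.

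Levels are CPM, the counts of a gene per 1e+06 counts of its library, with library sizes corrected by TMM (trimmed mean of M-values). Differences are log2 fold changes with a standard error (SE) from the quasi-likelihood test of edgeR, fitted over all 16004 genes and 22 libraries. A gene was called at an adjusted p under 0.05 (Benjamini-Hochberg over all genes tested, two-sided). Library totals ran from 16169659 to 64996530 counts, in a shallow and a deep set with no library near 40000000. Of the deep set were 3 of 5 male and 1 of 7 female libraries at 50 days, and none of the 5 male and all 5 female libraries at 20 days. Depth and sex can therefore not be told apart within the 20-day libraries. The 8 enzymes stood at 28.0 CPM or more in every library, with 549 counts at the lowest. The RNA was amplified, so these counts do not show how much of the spread between libraries arose between birds and how much in handling. In tissue RNA of this kind, fewer cells of a type and less RNA per cell cannot be told apart.

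**Figure D1:**
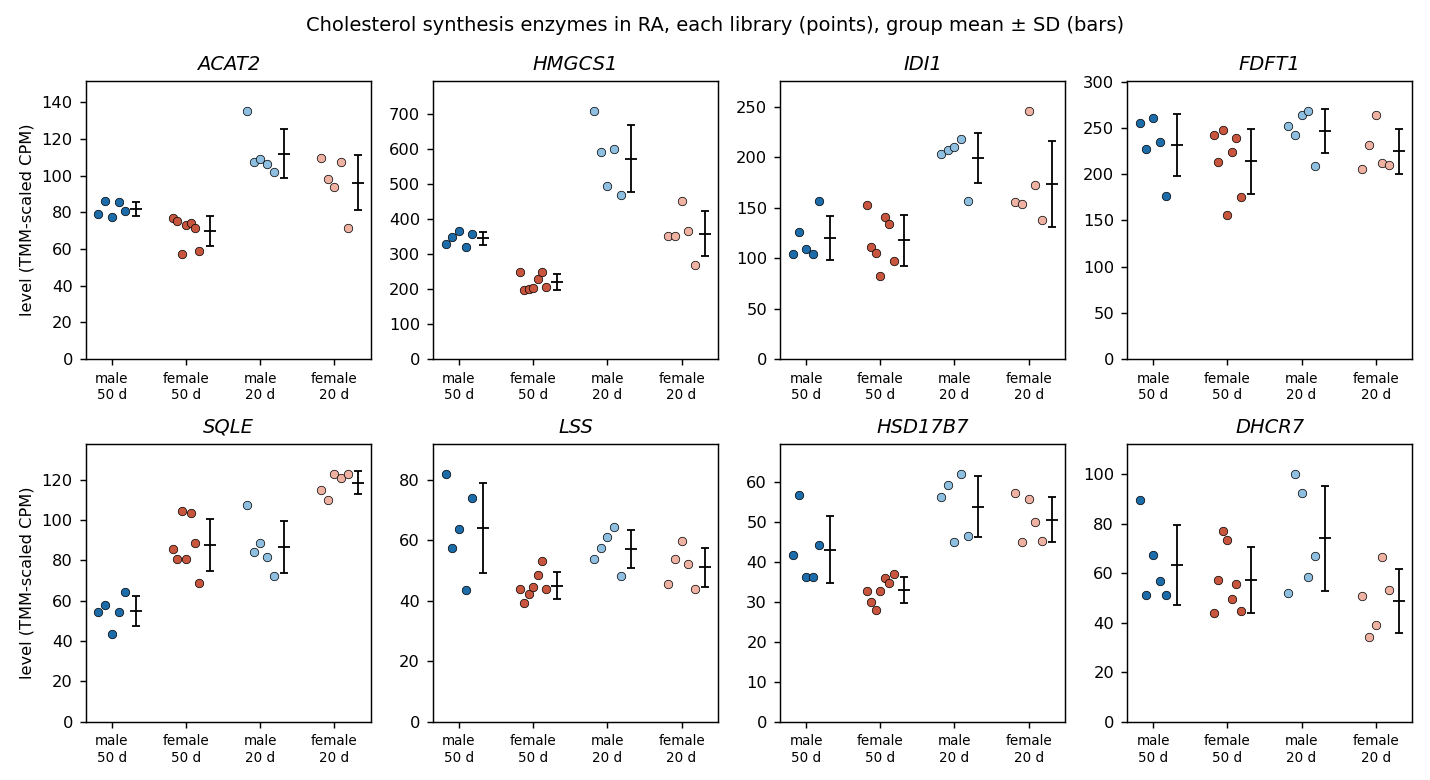
Level of each enzyme in TMM-scaled CPM (y axis, from 0) in each of the 22 libraries (points), with the group mean ± SD beside them; panels follow the order of the pathway. HMGCS1 and SQLE separated males from females at both ages in opposite directions, and HMGCS1, IDI1, SQLE and ACAT2 were called lower at 50 than at 20 days in both sexes.

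The first step was lower at 50 days. ACAT2, the cytosolic thiolase that joins acetyl-CoA units to acetoacetyl-CoA, had 79.0, 86.3, 77.7, 85.7 and 80.8 CPM in the 5 males at 50 days, against 135, 107, 109, 106 and 102 CPM in the 5 males at 20 days. Every male at 50 days lay below every male at 20 days, and the log2 fold change was -0.45 (SE 0.11, adjusted p = 0.00354). Females at 50 days had 57.2 CPM at the lowest, 72.9 at the median and 76.8 at the highest, against 110, 98.3, 93.9, 107 and 71.7 CPM in the 5 females at 20 days. Only the female with 71.7 CPM at 20 days lay within the range of the older females. In females it came to -0.47 on the log2 scale (SE 0.10, adjusted p = 0.00316).

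HMGCS1, which makes HMG-CoA for the mevalonate pathway, was lower at 50 days by a similar amount in each sex. It had 329, 350, 364, 321 and 357 CPM in males at 50 days, against 709, 591, 493, 600 and 469 CPM in males at 20 days. The 50-day males lay close together and all below the 20-day males, whose spread was wide. This was a log2 fold change of -0.73 (SE 0.12, adjusted p = 6.52e-05). Females at 50 days had 196 CPM at the lowest, 206 at the median and 249 at the highest, against 351, 353, 452, 366 and 269 CPM in females at 20 days. The ages did not overlap in females either, and the log2 fold change was -0.71 (SE 0.11, adjusted p = 0.000118). Ordered by mean, HMGCS1 stood highest in 20-day males, then in 20-day females, 50-day males and 50-day females. The 20-day females and the 50-day males overlapped, and no other neighbours in that order did.

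IDI1, the isomerase that turns the first isoprenoid unit into its reactive form, was also lower at 50 days in each sex. Its level was 104, 126, 109, 104 and 156 CPM in males at 50 days, against 204, 208, 211, 218 and 156 CPM in males at 20 days. The ranges met at 156 CPM, where the highest of the older males stood beside the lowest of the younger ones. The log2 fold change in males was -0.73 (SE 0.17, adjusted p = 0.00216). In females IDI1 had 82.3 CPM at the lowest, 111 at the median and 153 at the highest at 50 days, against 156, 154, 246, 173 and 138 CPM at 20 days. The ranges overlapped from 138 to 153 CPM. The log2 fold change in females was -0.56 (SE 0.15, adjusted p = 0.0162), and the call ended without female 20-day replicate 3, the library with 246 CPM (adjusted p = 0.0744).

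FDFT1, squalene synthase, which commits isoprenoids to sterols, did not pass the test. It averaged 231 ± 33.5 CPM in males at 50 days and 247 ± 23.9 CPM in males at 20 days (SD, n = 5 each), with a log2 fold change of -0.10 (SE 0.12, adjusted p = 0.621). In females it averaged 214 ± 35.3 CPM at 50 days (SD, n = 7) and 225 ± 24.3 CPM at 20 days (SD, n = 5), with a log2 fold change of -0.07 (SE 0.11, adjusted p = 0.744). All 4 groups overlapped for this gene.

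SQLE, squalene epoxidase, which brings in the oxygen of the sterol and is a control point of the pathway in mammals, was lower at 50 days in each sex. Males at 50 days had 54.4, 58.0, 43.6, 54.2 and 64.4 CPM, against 107, 84.0, 88.8, 81.5 and 72.2 CPM in males at 20 days. Females at 50 days had 69.0 CPM at the lowest, 85.7 at the median and 105 at the highest, against 115, 110, 123, 121 and 123 CPM in females at 20 days. The ages did not overlap in either sex. The log2 fold change was -0.66 in males (SE 0.12, adjusted p = 0.000202) and -0.44 in females (SE 0.11, adjusted p = 0.00816). SQLE was highest in 20-day females and lowest in 50-day males. The groups between them, 50-day females and 20-day males, averaged 87.6 ± 12.9 CPM (SD, n = 7) and 86.8 ± 12.99 CPM (SD, n = 5) and overlapped almost fully.

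Of LSS, HSD17B7 and DHCR7, the call with age was that of HSD17B7 in females. LSS, which folds squalene epoxide into lanosterol, averaged 64.2 ± 14.9 CPM in males at 50 days and 57.1 ± 6.31 CPM in males at 20 days (SD, n = 5 each), with a log2 fold change of 0.17 (SE 0.14, adjusted p = 0.398). In females it averaged 45.1 ± 4.57 CPM at 50 days (SD, n = 7) and 51.1 ± 6.53 CPM at 20 days (SD, n = 5), with a log2 fold change of -0.18 (SE 0.12, adjusted p = 0.37). LSS was thus the enzyme with a positive estimate in males and a negative one in females, neither of which was called.

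HSD17B7 is the ketosteroid reductase that helps to strip methyl groups from the sterol ring, and in mammals it can also reduce estrone to estradiol. Females at 50 days had 28.0 CPM at the lowest, 32.8 at the median and 36.9 at the highest, against 57.02, 44.9, 55.6, 49.8 and 45.3 CPM in females at 20 days. The ages did not overlap in females, and the log2 fold change was -0.62 (SE 0.12, adjusted p = 0.000894). Males at 50 days had 41.7, 56.6, 36.1, 36.3 and 44.2 CPM, against 56.1, 59.2, 44.9, 62.0 and 46.4 CPM in males at 20 days. The ages overlapped in males, through the older male with 56.6 CPM, and HSD17B7 was not called there (log2 fold change -0.32, SE 0.13, adjusted p = 0.0615). It was called in males with limma voom (adjusted p = 0.0328) and without male 20-day replicate 3, male 20-day replicate 5 or male 50-day replicate 2 (adjusted p down to 0.00821). The age change of HSD17B7 was not shown to differ between the sexes (interaction 0.29, SE 0.17, adjusted p = 0.289).

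DHCR7 reduces 7-dehydrocholesterol, the precursor of vitamin D, to cholesterol. It averaged 63.2 ± 16.2 CPM in males at 50 days and 74.0 ± 21.3 CPM in males at 20 days (SD, n = 5 each), and 57.3 ± 13.2 CPM in females at 50 days (SD, n = 7) and 48.8 ± 12.8 CPM in females at 20 days (SD, n = 5). Its spread within groups was the widest of the 8 relative to its mean in each of the 4 groups, and the age change was not called in males (log2 fold change -0.23, SE 0.21, adjusted p = 0.482) or in females (0.23, SE 0.20, adjusted p = 0.48).

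In all, 4 of the 8 enzymes were called lower at 50 days and none higher in males, where 14.2% of all genes tested were called lower and 12.5% higher. In females 5 of 8 were called lower and none higher, where 8.05% of all genes were called lower and 6.80% higher. The median of the 8 log2 fold changes was -0.39 in males and -0.45 in females, and that of all genes tested was -0.01 in males and 0.01 in females. Without the Z-linked HMGCS1 the medians of the other 7 were -0.32 and -0.44. The groups did not overlap for 3 of the 8 in males and 3 of the 8 in females, against 18.1% and 7.46% of all genes. In the interaction, taken as age change of males less that of females, none of the 8 was called, against 12.3% of all genes. There edgeR gave 0 enzymes at an unadjusted p under 0.05, with the smallest p at LSS (0.0711), and DESeq2 and limma voom called 0 as well.

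All 5 female libraries at 20 days were deep, against 1 of 7 at 50 days. When the model also held the depth set (the depth term), 2 enzymes were called lower in females, HMGCS1 (log2 fold change -0.68, adjusted p = 0.0164) and HSD17B7 (-0.68, adjusted p = 0.0228), while ACAT2 (-0.45, adjusted p = 0.0854), IDI1 (-0.46, adjusted p = 0.262) and SQLE (-0.34, adjusted p = 0.244) lost their call. Among deep female libraries alone, the single 50-day library was compared with the 20-day females. The log2 fold changes were -0.54 for HMGCS1, -0.55 for HSD17B7, -0.43 for ACAT2, -0.38 for IDI1 and -0.43 for SQLE. They are given without a test because the 50-day arm is 1 library. For ACAT2 that library stood level with the lowest 20-day female, at 71.7 CPM each. In males all 4 calls stood with that term. With terms for depth and replicate number together, HMGCS1 (-0.67, adjusted p = 0.0281) and SQLE (-0.77, adjusted p = 0.0122) were called in males. IDI1 (-0.81, adjusted p = 0.0735) and ACAT2 (-0.40, adjusted p = 0.108) were not. In females 0 enzymes were called with both terms, with HMGCS1 at -0.81 (adjusted p = 0.125) and HSD17B7 at -0.94 (adjusted p = 0.092). Among shallow male libraries alone, 2 at 50 days against 5 at 20 days, HMGCS1 (-0.66, adjusted p = 0.0135), IDI1 (-0.74, adjusted p = 0.0381) and SQLE (-0.76, adjusted p = 0.0209) were lower, and ACAT2 was not called (-0.43, adjusted p = 0.0956).

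**Figure D2:**
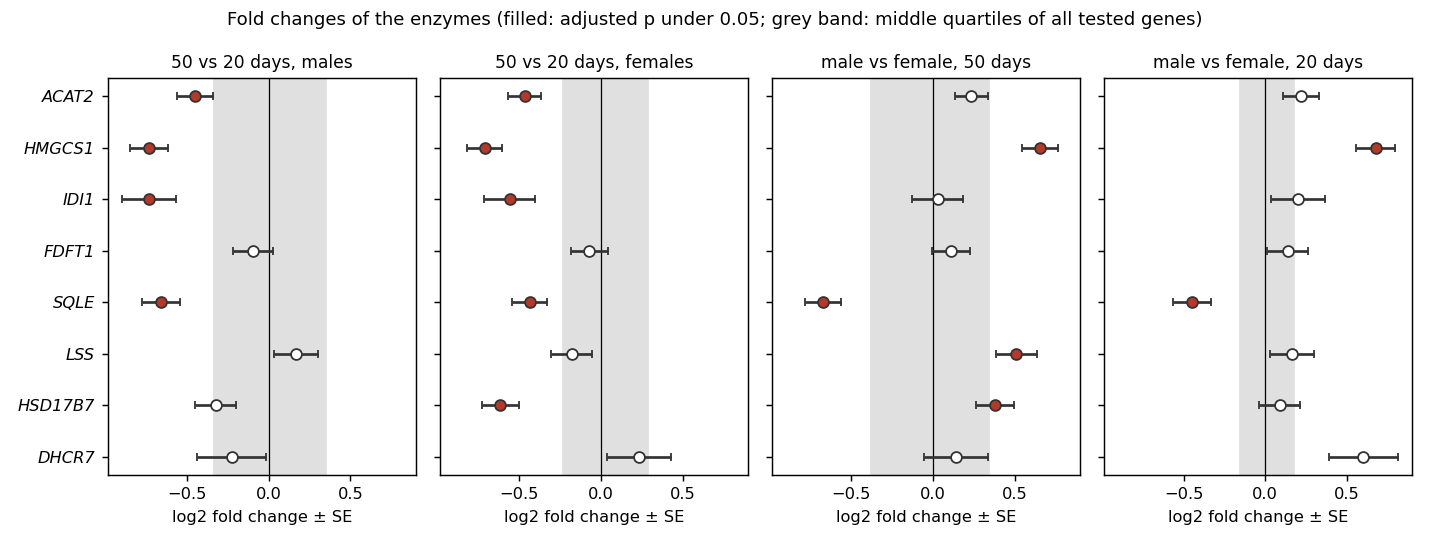
Log2 fold change ± SE (x axis) of each enzyme (rows, in pathway order) in the 4 comparisons; filled points passed an adjusted p under 0.05 and the grey band spans the middle quartiles of all 16004 genes. ACAT2, HMGCS1, IDI1 and SQLE lie left of the band in both age comparisons, and in both sex comparisons HMGCS1 lies to its right and SQLE to its left.

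Myelin genes were higher at 50 days, when 4 of the enzymes in males and 5 in females were lower. All 6 tested myelin markers of the 9 listed were called higher at 50 days in each sex. Their summed level was 7256 to 12693 CPM in males and 2867 to 6812 CPM in females at 50 days, against 150 to 1196 CPM in males and 144 to 1444 CPM in females at 20 days. The median marker was 3.01 higher in males and 2.42 higher in females on the log2 scale. MBP, a main protein of myelin, was above 0 in all 22 libraries. Neuron markers summed to 7448 to 9472 CPM in males and 7339 to 9804 CPM in females at 50 days, against 7338 to 8605 CPM in males and 7628 to 9286 CPM in females at 20 days. These sums overlapped, but SNAP25 makes up much of them and single markers moved. With age 2 of the 8 neuron markers were called higher and 2 lower in males, and 1 higher and 1 lower in females. STMN2, a gene of growing neurites, averaged 354 ± 56.2 CPM in males (SD, n = 5) and 628 ± 78.4 CPM in females (SD, n = 7) at 50 days, against 1192 ± 149 CPM in males and 1248 ± 239 CPM in females at 20 days (SD, n = 5 each). It was thus lower at 50 days beside the enzymes, with log2 fold changes of -1.75 in males (adjusted p = 4.35e-09) and -0.99 in females (adjusted p = 8.94e-06). SNAP25, of the synapse, was higher at 50 days, by 0.47 in males (adjusted p = 0.000296) and 0.34 in females (adjusted p = 0.00667). Of the 7 astrocyte markers 4 were called higher in males, and 1 higher and 1 lower in females. Of the 5 endothelial markers 2 were called higher in males and 2 lower in females. Among all genes tested, 12.5% were called higher and 14.2% lower in males, and 6.80% higher and 8.05% lower in females. The part that any shift in cell types had in the levels of the enzymes was not tested.

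HMGCS1 and SQLE differed between the sexes at both ages. At 50 days HMGCS1 stood at 344 ± 18.4 CPM in males (SD, n = 5) and 219 ± 22.8 CPM in females (SD, n = 7), and every male lay above every female. The log2 fold change was 0.65 (SE 0.11, adjusted p = 6.03e-05), or 1.57-fold. Among shallow 50-day libraries it was 0.75 (adjusted p = 0.00255), and among deep ones, with a single female and so no test, 0.44. At 20 days it stood at 573 ± 95.7 CPM in males and 358 ± 64.8 CPM in females (SD, n = 5 each), again without overlap, since the lowest male had 469 CPM and the highest female 452 CPM. This gave a log2 fold change of 0.68 (SE 0.12, adjusted p = 0.000746).

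The sex difference of HMGCS1 had the size of that of the middle Z-linked gene. The median of the 658 Z-linked genes tested was 0.67 at 50 days and 0.69 at 20 days, against -0.05 and -0.02 for the 12921 autosomal genes. Of the Z-linked genes 48.2% had a lower log2 fold change between the sexes than HMGCS1 at 50 days, and 49.1% at 20 days. Its age change lay towards the low end, since 8.21% of Z-linked genes in males and 5.32% in females had a lower one.

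**Figure D3:**
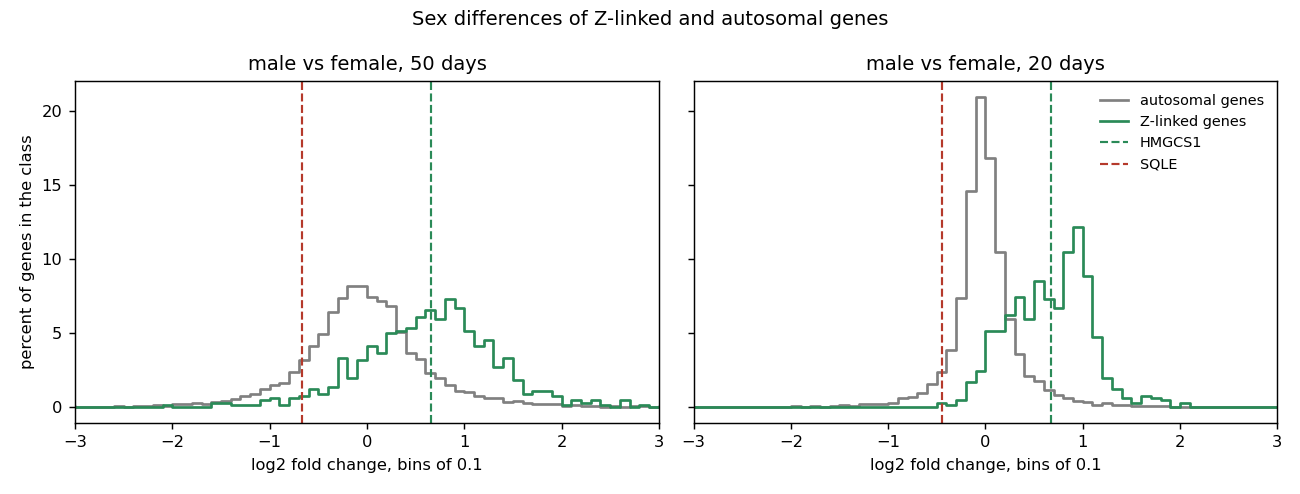
Share of genes (y axis, percent of the class) by log2 fold change between males and females (x axis, bins of 0.1) for Z-linked and autosomal genes at 50 and 20 days. The dashed line of HMGCS1 runs through the middle of the Z-linked genes at both ages, at 0.65 and 0.68, and that of the autosomal SQLE lies on the low side, at -0.67 and -0.45.

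SQLE went the opposite way. At 50 days it stood at 54.9 ± 7.57 CPM in males (SD, n = 5) and 87.6 ± 12.9 CPM in females (SD, n = 7). The highest male, at 64.4 CPM, lay below the lowest female, at 69.0 CPM, and the log2 fold change was -0.67 (SE 0.11, adjusted p = 5.83e-05). At 20 days males averaged 86.8 ± 12.99 CPM and females 118 ± 5.71 CPM (SD, n = 5 each), without overlap, and the log2 fold change was -0.45 (SE 0.12, adjusted p = 0.0441). That call at 20 days was near the threshold. It held in 6 of the 22 fits that each leave out 1 library, namely those without male 20-day replicate 1, male 50-day replicates 3 or 5 and female 50-day replicates 3, 5 or 7, and the adjusted p reached 0.146 in the other fits. With the depth term SQLE at 20 days was not called (log2 fold change -0.33, adjusted p = 0.668), and HMGCS1 was (0.72, adjusted p = 0.0463). With a term for replicate number added, HMGCS1 was not called either (0.59, adjusted p = 0.442). Depth and sex coincide at 20 days, so the depth term is set by the 50-day libraries. These fits therefore cannot separate depth from sex at 20 days. At 50 days SQLE was lower in males among shallow libraries (-0.77, adjusted p = 0.0143). Among deep ones the value was -0.62, again with a single female library and no test.

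LSS and HSD17B7 passed the test between the sexes at 50 and not at 20 days, and the change of that difference with age was not called for either. LSS had 82.2, 57.5, 63.8, 43.6 and 74.2 CPM in males, and in females 39.2 CPM at the lowest, 43.9 at the median and 53.3 at the highest. A single male, replicate 4 at 43.6 CPM, fell within the female range. The log2 fold change was 0.51 (SE 0.12, adjusted p = 0.00279), or 0.49 among shallow libraries (adjusted p = 0.0242) and 0.32 among deep ones. With terms for depth and replicate number LSS was not called (0.43, adjusted p = 0.201). HSD17B7 averaged 43.0 ± 8.38 CPM in males (SD, n = 5) and 32.96 ± 3.19 CPM in females (SD, n = 7), with a log2 fold change of 0.38 (SE 0.12, adjusted p = 0.0136). Its call ended without male 50-day replicate 2, the library with 56.6 CPM (log2 fold change 0.26, adjusted p = 0.07). It was 0.52 among shallow libraries (adjusted p = 0.0742) and 0.23 among deep ones.

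The other enzymes did not pass the test between the sexes. ACAT2 averaged 81.9 ± 3.93 CPM in males (SD, n = 5) and 69.6 ± 8.08 CPM in females (SD, n = 7) at 50 days. All males lay above all females there, but the difference of 0.23 was not called (SE 0.10, adjusted p = 0.0807). It was called without female 20-day replicate 5 (adjusted p = 0.0447) and in a fit of the 50-day groups alone (adjusted p = 0.0437). IDI1 was all but equal at 50 days, with a log2 fold change of 0.03 (SE 0.15, adjusted p = 0.908), and stood at 0.20 at 20 days (SE 0.17, adjusted p = 0.808). FDFT1 gave 0.11 at 50 days (SE 0.11, adjusted p = 0.495) and 0.14 at 20 days (SE 0.12, adjusted p = 0.825). DHCR7 gave 0.14 at 50 days (SE 0.20, adjusted p = 0.623). Its 20-day estimate of 0.60 was close in size to that of HMGCS1, but the males, at 52.1, 100, 92.5, 58.3 and 67.0 CPM, and the females, at 50.9, 34.0, 39.0, 66.5 and 53.3 CPM, overlapped, and it was not called (SE 0.21, adjusted p = 0.232).

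In all, 3 enzymes were called higher and 1 lower in males at 50 days, 4 of 8 in all, where 33.1% of all genes were called. At 20 days 1 was called higher and 1 lower, 2 of 8, against 2.11% of all genes. The higher one is the Z-linked HMGCS1, and 281 of the 658 Z-linked genes were called higher at 20 days. Of the 7 autosomal enzymes 1 was called lower there, against 16 higher and 27 lower of 12921 autosomal genes. At 50 days 2 of those 7 were called higher and 1 lower, against 2003 higher and 2541 lower of the autosomal genes. The sexes did not overlap for 3 of the 8 at 50 days and 2 of the 8 at 20 days, against 16.1% and 3.61% of all genes. Markers of neurons, astrocytes and endothelium also differed by sex at 50 days. Of the 8 neuron markers 2 were called higher and 4 lower in males. STMN2 was lower in males by the levels given above (log2 fold change -0.83, adjusted p = 1.66e-05), as was SYT1, of synaptic vesicles, at 687 ± 122 CPM in males (SD, n = 5) and 1129 ± 198 CPM in females (SD, n = 7; adjusted p = 8.81e-05). NEFM, a neurofilament subunit, was higher in males, at 814 ± 88.7 CPM in males (SD, n = 5) and 445 ± 50.9 CPM in females (SD, n = 7; adjusted p = 3.74e-05). Of the 7 astrocyte markers tested 4 were called higher in males, with a summed level of 5670 to 7171 CPM in males and 3620 to 4038 CPM in females. That sum includes the Z-linked SLC1A3, at 955 ± 134 CPM in males (SD, n = 5) and 651 ± 90.8 CPM in females (SD, n = 7). Of the 5 endothelial markers 4 were called higher in males, with 373 to 552 CPM in males and 181 to 278 CPM in females. For the 6 myelin markers the summed levels given above did not overlap between the sexes at 50 days. There edgeR called 0 of them, with 3 at an unadjusted p under 0.05, while DESeq2 called 2 and limma voom 3. The part of these cells in the sex differences of the enzymes was not tested.

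Some libraries were the highest or the lowest of their group for several enzymes. Male 20-day replicate 5 was the lowest male of its group for 6 of the 8 enzymes, namely ACAT2, HMGCS1, IDI1, FDFT1, SQLE and LSS. Among females at 20 days replicate 3 was the highest for HMGCS1, IDI1, FDFT1, SQLE and LSS, and replicate 5 the lowest for HMGCS1, IDI1, LSS and ACAT2. Other libraries went both ways. Male 50-day replicate 3 was the highest of its group for 2 enzymes and the lowest for 3. Female 50-day replicate 3 was the highest for 3 and the lowest for 2. With the group means removed, the pair of HMGCS1 and IDI1 had the highest Pearson likeness of the 28 pairs over the 22 libraries, at 0.71, and HMGCS1 and DHCR7 the lowest, at -0.42. Some pairs lay near 0, such as LSS with ACAT2 at 0.01 and FDFT1 with ACAT2 at 0.04. These values describe libraries that share their depth sets and their scaling.

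**Figure D4:**
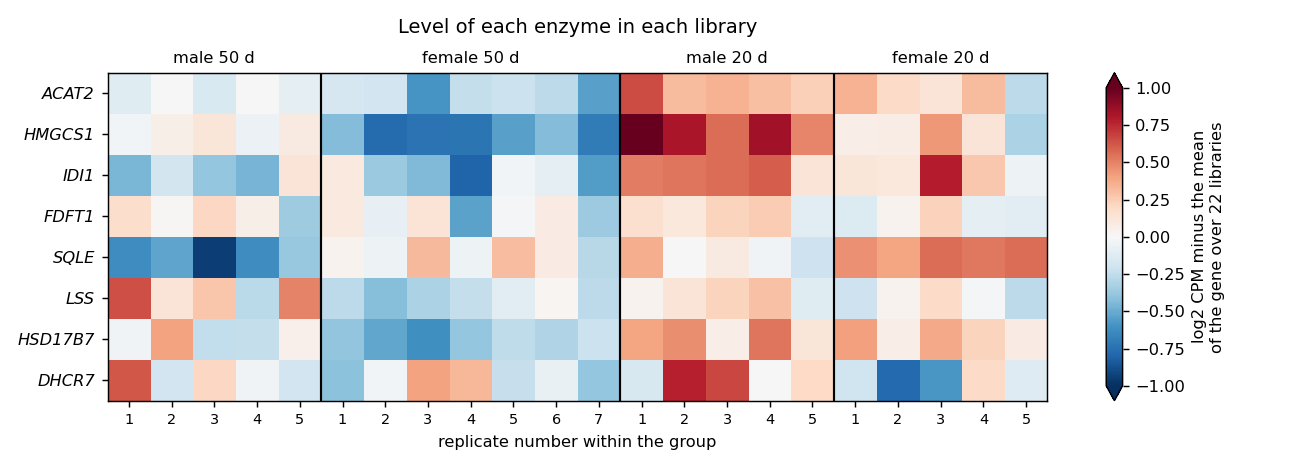
Log2 CPM of each enzyme (rows) in each library (columns, by group and replicate number), as the difference from the mean of the gene over the 22 libraries; red is higher and blue lower. Male 20-day replicate 5 is the lowest of its group in 6 of the 8 rows, and SQLE is blue in the 50-day males and red in the 20-day females.

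The other sterol enzymes were a mixed set. Of 14 listed genes 12 were tested. In males 3 were called lower and 2 higher at 50 than at 20 days, and in females 2 lower and 1 higher, with a median of 0.02 in males and -0.10 in females. Among all genes tested, 14.2% were called lower and 12.5% higher in males, and 8.05% lower and 6.80% higher in females. MVK, mevalonate kinase, was lower in males (log2 fold change -0.54, SE 0.13, adjusted p = 0.0034). CYP51A1, the demethylase that acts on lanosterol, was lower in females (-0.53, SE 0.12, adjusted p = 0.00497), and was not called with the depth term (-0.42, adjusted p = 0.173). LBR, a sterol reductase that is also a receptor of the nuclear lamina, was higher at 50 days in males (0.37, adjusted p = 0.006) and in females (0.34, adjusted p = 0.0127), and the male call was lost with the depth term (0.28, adjusted p = 0.0994).

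Between the sexes 4 of the 12 were called higher and 1 lower in males at 50 days, and 1 higher and none lower at 20 days. Of all genes 33.1% were called at 50 days and 2.11% at 20 days. SC5D, the desaturase that makes the substrate of DHCR7, averaged 126 ± 21.3 CPM in males (SD, n = 5) and 81.6 ± 12.2 CPM in females (SD, n = 7) at 50 days (log2 fold change 0.63, SE 0.13, adjusted p = 0.000593), or 0.50 among shallow libraries alone (adjusted p = 0.0831). CYP51A1 was higher in males by 0.47 (SE 0.12, adjusted p = 0.00464). It was 0.53 among shallow libraries (adjusted p = 0.0424) and 0.21 among deep ones, with a single female and no test. CYP51A1 was called with the depth term alone (0.42, adjusted p = 0.0289) and with replicate number alone (0.47, adjusted p = 0.00874). With both terms together it was not called (0.44, adjusted p = 0.114). MSMO1, a methylsterol oxidase, was higher in males by 0.36 (SE 0.11, adjusted p = 0.0111). The call of MSMO1 ended with the depth term, where the fold was 0.31 on the log2 scale (adjusted p = 0.0718).

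Of the SREBP regulators and uptake genes, 11 were listed and 10 tested. With age 1 was called lower and none higher in males. Of all genes tested, 14.2% were called lower and 12.5% higher in males, and 8.05% lower and 6.80% higher in females. Between the sexes 1 was called higher and none lower in males at each age, against 33.1% of all genes called at 50 days and 2.11% at 20 days. A list of 10 genes is too short to read these counts as a result. SCAP, the escort of SREBP, was lower at 50 days in males (log2 fold change -0.88, SE 0.25, adjusted p = 0.0112). With the depth term the estimate was -0.87 and was not called (adjusted p = 0.0517). No gene of this list was called for age in females, where edgeR gave 0 at an unadjusted p under 0.05, and DESeq2 and limma voom called 0. SREBF2, the gene of SREBP2, had estimates of -0.49 in males (SE 0.27, adjusted p = 0.205) and 0.31 in females (SE 0.25, adjusted p = 0.463). STARD4, a Z-linked carrier of cholesterol within the cell, was higher in males at 50 days, at 155 ± 11.8 CPM in males (SD, n = 5) and 79.4 ± 9.72 CPM in females (SD, n = 7), and at 20 days, at 153 ± 5.66 CPM in males and 80.2 ± 11.7 CPM in females (SD, n = 5 each; adjusted p = 3.5e-08 at 50 days and 1.06e-06 at 20 days). It showed no call with age (log2 fold changes 0.02 and -0.01).

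Most genes of cholesterol turnover and transport that were called with age were higher at 50 days. Of 17 listed genes 14 were tested, and at 50 days 6 were called higher and 1 lower in males, and 5 higher and none lower in females. Of all genes tested, 12.5% were called higher and 14.2% lower in males, and 6.80% higher and 8.05% lower in females. The median of the list was 0.50 in each sex. NPC1, which exports cholesterol from lysosomes, averaged 127 ± 23.8 CPM in males at 50 days and 59.4 ± 7.80 CPM in males at 20 days (SD, n = 5 each; log2 fold change 1.10, SE 0.15, adjusted p = 9.59e-06). In females it averaged 90.3 ± 14.6 CPM at 50 days (SD, n = 7) and 60.7 ± 12.5 CPM at 20 days (SD, n = 5), a log2 fold change of 0.57 (SE 0.14, adjusted p = 0.00728). With the depth term the 4 female calls with the smallest p were all lost, namely NPC1 (0.54, adjusted p = 0.131), LCAT (1.82, adjusted p = 0.0672), LRP1 (0.58, adjusted p = 0.118) and ABCG1 (0.43, adjusted p = 0.491). The estimates of NPC1, LCAT and LRP1 stayed close to 0.57, 1.92 and 0.58, and that of ABCG1 was 0.88 without the term.

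CYP46A1, the neuronal hydroxylase through which mammalian brain clears cholesterol, stood at 59.6 ± 3.39 CPM in males at 50 days and 40.4 ± 4.11 CPM in males at 20 days (SD, n = 5 each; log2 fold change 0.56, SE 0.10, adjusted p = 0.000252). NR1H3, a sterol-sensing nuclear receptor of the LXR type, rose with age in males, by 0.75 (SE 0.15, adjusted p = 0.000467). LCAT, which esterifies cholesterol on lipoproteins, was a low gene, at 12.8 ± 4.41 CPM in males at 50 days and 2.39 ± 0.772 CPM in males at 20 days (SD, n = 5 each; log2 fold change 2.42, SE 0.41, adjusted p = 0.000101). These genes and the 8 enzymes were read in the same libraries beside the same rise of myelin genes.

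**Figure D5:**
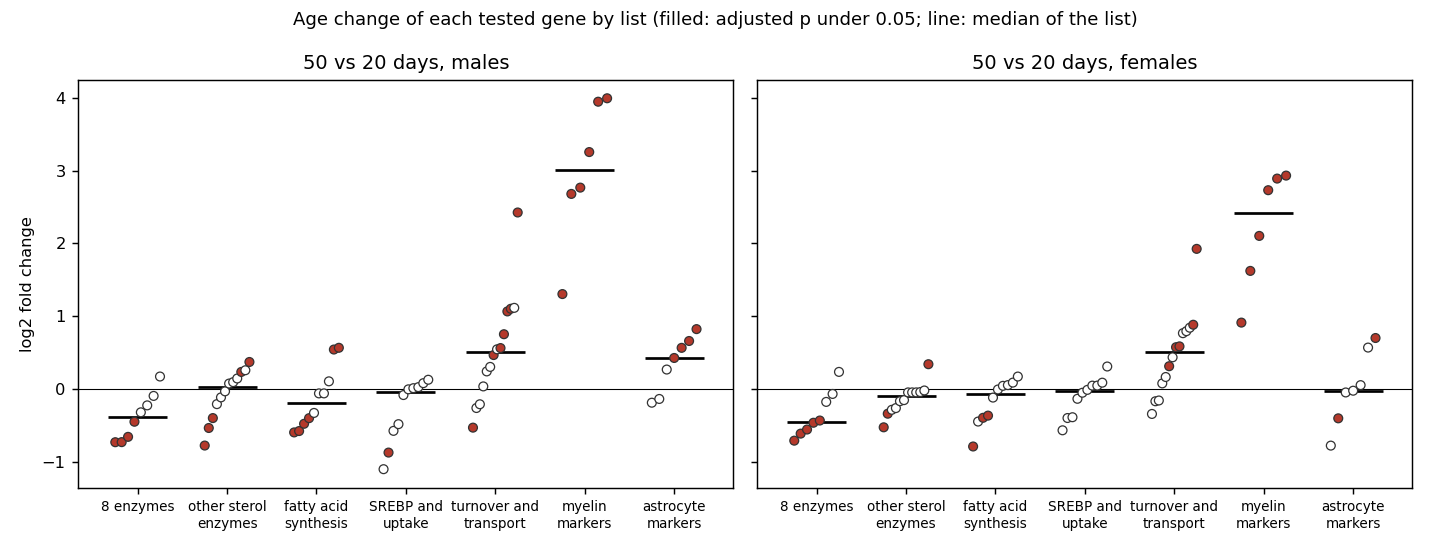
Log2 fold change between 50 and 20 days (y axis) of every tested gene of 7 lists, in males and in females; filled points passed an adjusted p under 0.05 and the line is the median of the list. The 8 enzymes have medians of -0.39 and -0.45, turnover and transport genes 0.50 in each sex, and myelin markers 3.01 and 2.42.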

How the data were processed

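RNA of RA was amplified with the SMART-Seq v4 kit from 1 ng per sample, per the labels' protocols. The authors deposited raw read counts per gene, whole numbers without normalisation. The submitters' processing notes name Trimmomatic 0.36, FastQC 0.11.9 and STAR 2.6.1. How reads were assigned to genes, on which assembly and annotation and with or without strand, is not given in the sources used here. Of 21955 entries 169 carry no gene ID and were left out (0.0344% to 0.0739% of a library's counts). Symbols and chromosome class come from the RefSeq table of bTaeGut7.mat, which matched 16205 genes and may not be the assembly the authors used. No sequences are shown.

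A model of the 4 groups used edgeR 4.0.16 under R 4.3.3 (filterByExpr, TMM, quasi-likelihood F test). The SE is the log2 fold change divided by the square root of F. The log2 CPM used for likeness has a prior count of 1. The depth set is a total over or under 40000000 counts. DESeq2 1.42.0 and limma 3.58.1 (voom with sample quality weights) were alternatives, beside another scaling, other filters, fits by depth set, the replicate block and leaving out each library. The steps were tested on simulated counts.

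Same-numbered libraries of different groups were correlated in their deviations from the group means over 0.1 in 3 of 30 pairs (-0.0864 to 0.23), so replicate numbers were not taken as pairing birds. The replicates are those the labels number, so p-values set each difference against the spread between these samples, as estimated over all groups together.

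The enzymes and the gene lists were chosen with earlier results of these data known. Named besides the 8 enzymes are up to 4 called genes of a list and comparison with the smallest p, with SREBF2 and the neuron markers STMN2, SNAP25, SYT1 and NEFM added after their values were seen. Some genes named by this rule are not reported here.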

Additional observations from a re-analysis of the deposited data

Results flagged for a closer look

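Among the 32 sets of 1 enzyme in 1 group, 2 held a library that stood apart from the others of its group, where chance alone flags about 1 in 20. For IDI1 in males at 20 days replicate 5 had the lowest level, 156 CPM, against 204 CPM for the nearest other library and 218 CPM for the highest. For ACAT2 in males at 20 days replicate 1 had the highest level, 135 CPM, against 109 CPM for the nearest other library and 102 CPM for the lowest. Leaving out any 1 of the 22 libraries in turn, the age change in males stayed called by edgeR for IDI1 (largest adjusted p 0.00832) and for ACAT2 (largest adjusted p 0.0161).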

How the results depend on the processing

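Over 1304 recomputed values of the 8 enzymes none that was called changed direction, and 452 of 497 values of called changes kept their call. Of the values not called, 42 changed sign without being called. Another scaling, DESeq2, limma voom, other filters, the summed libraries of female 50-day replicates 5 and 6 and, for the comparisons of 2 groups, a fit without the other groups left each count of called enzymes and of called genes within 1.5 times. With the replicate block, 1 enzyme was called between the sexes at 20 days in place of 2 (SQLE lost, adjusted p = 0.0773) and 3 in place of 5 with age in females (IDI1, 0.0647, and SQLE, 0.0517, lost). The block with the depth term called 0 enzymes (44 genes) by sex at 20 days, 2 enzymes (1566 genes) by age in males, 0 enzymes (105 genes) by age in females, 2214 genes by sex at 50 days and 0 genes in the interaction. The depth term alone called 1 enzyme (187 genes) by sex at 20 days, 2 enzymes (744 genes) by age in females, 2712 genes by age in males and 72 genes in the interaction, against 337, 2378, 4276 and 1971 genes without it. Shallow libraries alone called 1956 genes by sex at 50 days and 1546 by age in males. Deep ones called 1 enzyme (999 genes) by sex at 50 days and 0 enzymes (21 genes) by age in females; each has fewer samples, and the deep 50-day females are 1 library, assumed there to vary like the other groups. Leaving out 1 library gave 1 to 2 enzymes (287 to 351 genes) by sex at 20 days, 3 to 5 (4477 to 5350) by sex at 50 days, 4 to 5 (3639 to 4366) by age in males, 4 to 5 (1746 to 2421) by age in females, and 0 (1506 to 2131) in the interaction. Replicate numbers 6 and 7 occur only among 50-day females, so the block fits these libraries exactly and they do not bear on its comparisons. Why calls changed with depth or the block was not tested. The small number of birds limits what can be called.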

Other observations

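Fatty acid synthesis, the other arm that SREBP factors serve, was listed with 11 genes, of which 10 were tested. At 50 days 3 were called higher and 3 lower in males than in females, where 33.1% of all genes were called. With age 2 rose and 4 fell in males, and 0 rose and 3 fell in females. Among all genes tested, 12.5% rose and 14.2% fell in males, and 6.80% rose and 8.05% fell in females. ELOVL5, which lengthens polyunsaturated fatty acids, was called higher at 50 than at 20 days in males (log2 fold change 0.56, adjusted p = 0.000264) and lower in females (-0.40, adjusted p = 0.00652), and the age changes differed (interaction 0.96, SE 0.14, adjusted p = 0.000156). With the depth term the male change was 0.43 (adjusted p = 0.0134), while the female change (-0.22, adjusted p = 0.383) and the interaction (0.65, adjusted p = 0.186) were not called. FADS1, a desaturase of the same chain, was lower at 50 days in females (-0.79, adjusted p = 0.000129). FASN, fatty acid synthase, was lower at 50 days in males (-0.60, adjusted p = 0.0136; -0.58 and 0.0769 with the depth term).

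The mean of the 8 enzymes on a centred log2 scale was -0.07 ± 0.09 in males (SD, n = 5) and -0.24 ± 0.11 in females (SD, n = 7) at 50 days, and 0.31 ± 0.13 in males and 0.10 ± 0.13 in females (SD, n = 5 each) at 20 days. The genes outside the 8 whose level followed that mean most closely over the 22 libraries included RAC3, CDR2, GSPT1, DYRK3 and TPM2, with Pearson likeness of 0.89, 0.88, 0.87, 0.87 and 0.86. With group means removed the values were 0.46, 0.64, 0.48, 0.39 and 0.26, in the same order, and TPM2 is Z-linked. The libraries share their scaling and their depth sets.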
